A study of Mus musculus with 2 samples.

Results

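The genes described here are 9 that mark the neurons making dopamine, serotonin and noradrenaline: Slc6a3, Slc6a4, Th, Ddc, Slc18a2, Tph2, Fev, Dbh and Nr4a2. They were chosen by name, with earlier results of these arrays known, so their signals are given as a description and no test was made. A probe set, a group of short oligonucleotides that reads the 3′ end of one transcript, was used only where the array annotation paired it with 1 listed gene alone. In this way 8 of the 9 genes had a probe set and Fev had none. All 8 were measured, meaning that at least 1 of the arrays gave a signal above background, among 13899 genes measured of 18194 with a probe set.

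The arrays compared lag mutant cerebrum at postnatal day 14 with that of wild-type littermates, 1 array per genotype, to look into the molecular pathology of the mutant. The lag (laggard) allele is a spontaneous recessive splice-site mutation of Kif14, a kinesin gene needed for cytokinesis. It arose in offspring of embryonic stem cell chimeras mated with hybrid C57BL/6N and DBA/2N females, and was backcrossed to C57BL/6J. No transgene, Cre or treatment is named for either animal, and the sources used here do not say how many mice gave each RNA sample.

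Dopamine neurons of the midbrain, serotonin neurons of the raphe and noradrenaline neurons of the locus coeruleus are small groups of cells in the brainstem whose axons reach most of the forebrain. Th begins the synthesis of dopamine and noradrenaline from tyrosine, Tph2 begins that of serotonin from tryptophan, and Ddc removes the carboxyl group in both pathways. Dbh then turns dopamine into noradrenaline. Slc18a2 loads all of these amines into synaptic vesicles, and the plasma membrane transporters Slc6a3 and Slc6a4 take dopamine and serotonin back up. Most of their mRNA lies in the cell bodies, so a dissection of the forebrain holds much of it only where parts of the brainstem are included. Dopamine neurons are also found in the olfactory bulb and the hypothalamus, which use Th and Ddc as well.

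The promoters of the 5 genes with the largest decreases, and of Slc18a2, which serves the same neurons and differed less, are shown from the RefSeq table of build GRCm38.p6. Each runs 5′ to 3′ in the direction of transcription, from 250 bases before the listed start of the gene to 20 after it. Capitals mark the motifs found on either strand.
Slc6a3, chr13:73536497-73536766, plus strand: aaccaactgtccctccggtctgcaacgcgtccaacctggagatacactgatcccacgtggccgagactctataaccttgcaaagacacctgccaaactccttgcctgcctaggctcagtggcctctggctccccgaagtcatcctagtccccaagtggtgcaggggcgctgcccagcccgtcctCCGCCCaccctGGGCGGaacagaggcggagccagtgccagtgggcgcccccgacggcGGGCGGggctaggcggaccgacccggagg
Slc6a4, chr11:76998347-76998616, plus strand: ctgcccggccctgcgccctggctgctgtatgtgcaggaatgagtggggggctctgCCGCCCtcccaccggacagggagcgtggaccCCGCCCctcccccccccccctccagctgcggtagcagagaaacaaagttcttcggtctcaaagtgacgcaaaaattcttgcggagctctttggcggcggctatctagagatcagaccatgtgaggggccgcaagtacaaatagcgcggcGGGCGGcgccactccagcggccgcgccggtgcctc
Tph2, chr10:115185003-115185272, minus strand: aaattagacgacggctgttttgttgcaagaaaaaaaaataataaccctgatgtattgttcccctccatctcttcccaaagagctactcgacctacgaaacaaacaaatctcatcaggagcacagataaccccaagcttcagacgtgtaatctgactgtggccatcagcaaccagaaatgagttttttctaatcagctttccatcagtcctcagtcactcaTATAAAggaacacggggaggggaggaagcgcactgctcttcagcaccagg
Ddc, upstream start, chr11:11898125-11898394, minus strand: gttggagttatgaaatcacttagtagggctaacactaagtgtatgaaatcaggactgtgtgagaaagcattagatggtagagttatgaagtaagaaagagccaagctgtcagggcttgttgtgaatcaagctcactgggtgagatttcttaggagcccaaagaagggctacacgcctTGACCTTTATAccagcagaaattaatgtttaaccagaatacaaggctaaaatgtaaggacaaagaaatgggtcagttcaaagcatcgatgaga
Th, chr7:142899976-142900245, minus strand: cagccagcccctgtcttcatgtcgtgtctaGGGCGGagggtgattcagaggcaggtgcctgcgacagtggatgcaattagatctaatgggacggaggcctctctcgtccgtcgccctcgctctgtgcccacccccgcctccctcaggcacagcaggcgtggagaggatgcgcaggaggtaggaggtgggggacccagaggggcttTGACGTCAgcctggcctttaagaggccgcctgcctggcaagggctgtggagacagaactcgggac
Slc18a2, chr19:59260628-59260897, plus strand: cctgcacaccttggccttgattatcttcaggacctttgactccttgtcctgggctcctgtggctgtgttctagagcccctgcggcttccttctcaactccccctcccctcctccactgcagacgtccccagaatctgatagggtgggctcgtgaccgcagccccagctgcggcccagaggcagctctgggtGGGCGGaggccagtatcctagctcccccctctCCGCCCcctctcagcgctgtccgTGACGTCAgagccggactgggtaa

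4 motifs were searched on both strands. They were the cyclic AMP response element TGACGTCA, present in 1.73% of all 32851 promoters of the same length, and AAAGGTCA, the element bound by single molecules of Nr4a2 and its relatives, present in 1.42%. The GC box GGGCGG was in 34.1% and the TATA box TATAAA in 12.9%. The Th promoter held the cyclic AMP response element 45 bases before the start, and Slc18a2 held it 4 bases before the start. The element of the Nr4a family was found, reading TGACCTTT on the shown strand, 73 bases before the upstream start of Ddc. It overlapped a TATA box that read TTTATA on the shown strand, so both motifs lay on the strand not shown. Slc6a3 and Slc6a4 each had 3 GC boxes, Slc18a2 had 2, and Th had 1 at 220 bases before the start. Tph2 had none of these and a TATA box 30 bases before its start. All 9 genes matched the table, with 10 promoters, and the other 4 are not printed. Those of Dbh and of the downstream start of Ddc held no motif of the 4. The Nr4a2 promoter had 4 GC boxes, some of them overlapping, and 1 TATA box, and the Fev promoter had 2 GC boxes. No motif was shared by all of the genes with large decreases, and base composition differed too, from 40.7% G and C at the upstream start of Ddc to 66.7% at Slc6a3, beside a median of 52.6% over all promoters. These matches are descriptions of the printed letters and not measured binding.

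In the lag mutant cerebrum, the transporter genes Slc6a3 and Slc6a4 and the enzyme genes Th, Tph2 and Ddc had signals 2.08 to 3.96-fold lower than in the wild-type cerebrum. Slc18a2 and Dbh differed by 1.25-fold or less, and Nr4a2, a transcription factor of midbrain dopamine neurons, had a signal 1.62-fold higher. Of the 8 measured genes, 5 thus lay past a 2-fold decrease, 0 past a 2-fold increase and 3 in between. Across all measured genes, the share with a decrease of 2-fold or more was 1.02% and that with such an increase 0.763%, and among the 5314 genes whose mean signal lay in the range of the members other than Nr4a2, 1.66% were at least 2-fold lower. Because the genes were chosen with their ratios known, nothing is read from this contrast of shares. The median log2 ratio, lag mutant over wild-type, was -1.16 over the 8 genes and 0.01 over all measured genes.

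Signals are linear intensities in arbitrary units, scaled to a common level per array by the authors. Background was set at the 95th percentile of 127 probe sets of receptor and keratin-associated gene families. These were taken as not transcribed in brain, which was not tested. The level was 48.7 for the wild-type array and 49.5 for the mutant one. Where a gene had several probe sets, that of highest mean signal stood for it. Where 1 signal lay under background it was raised to that level, and the fold is then a lower bound, written as at least. Summed signals of a list take the values as deposited, without this raising. In bulk tissue, fewer cells of a type and less RNA per cell cannot be told apart. With 1 array per genotype there is no replicate error, so no difference could be compared with the spread between mice. Over the 5314 genes of similar mean signal, the log2 ratio had an SD of 0.419, which is a spread across genes and not across animals. Kif14 itself had signals of 6.85 and 0.733, both under background, so its signal does not check the genotype labels. Myelin genes were lower beside the members, with Mbp at 18812 in the wild-type sample and 444 in the mutant and Mobp at 2224 and 26.5. Their part in the members' signals was not tested.

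The signal of Slc6a3, the dopamine transporter, was 402 in the wild-type sample and 102 in the lag mutant, a log2 ratio of -1.99 or 3.96-fold lower. Of the 13899 measured genes, 29 had a lower ratio. Slc6a4, the serotonin transporter, read 231 in the wild-type sample and 72.1 in the lag mutant, 3.20-fold lower, with 38 genes at lower ratios. Both transporters stayed above background in the mutant and had the lowest ratios of the 8 genes. Slc18a2, the vesicular transporter shared by all monoamine neurons, had 367 in the wild-type and 293 in the lag mutant, 1.25-fold lower with a log2 ratio of -0.32. Slc18a2 therefore differed from Slc6a3 and Slc6a4 in the size of its decrease on this pair of arrays, each read by 1 probe set. This does not extend to all plasma membrane transporters, as the noradrenaline transporter Slc6a2 read 97.3 in the wild-type and 96.3 in the lag mutant.

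**Figure D1:**
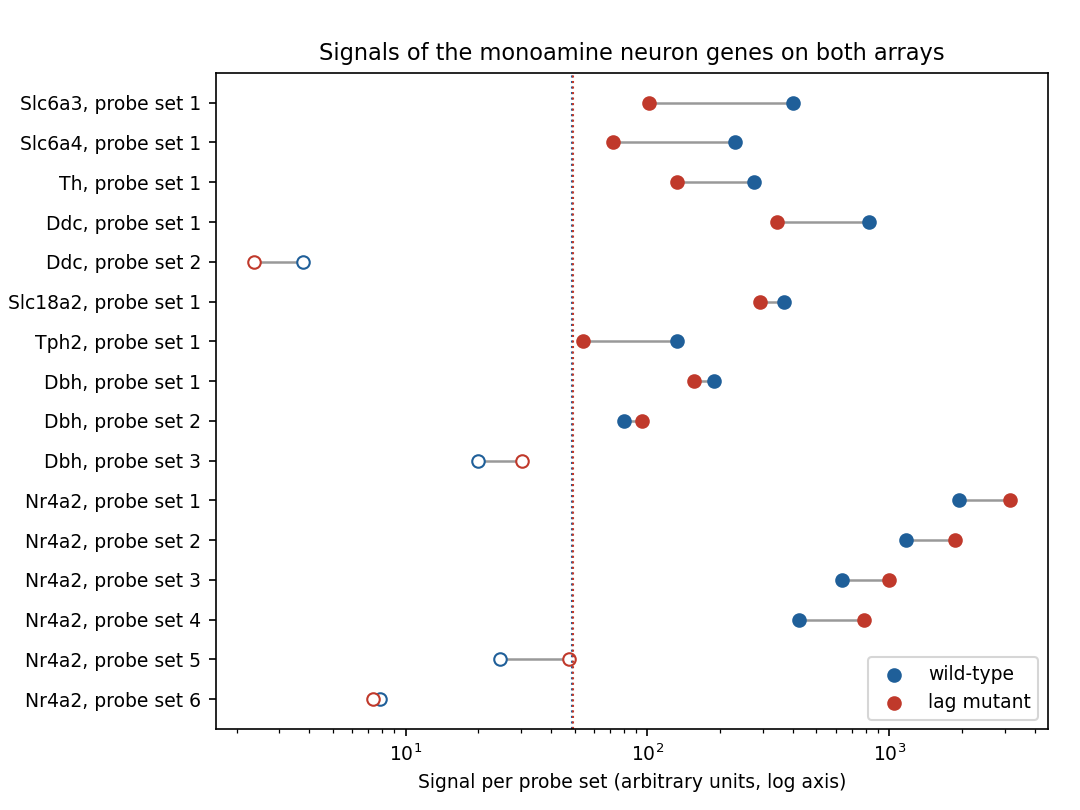
Signals of the 16 probe sets of the 8 genes on the wild-type (blue) and lag mutant (red) arrays, 1 array each, on a log axis in arbitrary units. Open circles mark probe sets under background on both arrays, and the dotted lines mark the background levels of 48.7 and 49.5. The blue point lies to the right of the red one by the widest distance at Slc6a3, from 402 to 102, while at Nr4a2 the red point lies to the right for the 4 probe sets above background.

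Th, tyrosine hydroxylase, read 275 in the wild-type sample and 132 in the lag mutant, 2.08-fold lower. This ratio was close to the 2-fold limit, and quantile normalization of the arrays made it 1.99-fold. Tph2, the neuronal tryptophan hydroxylase, had 133 in the wild-type and 54.4 in the lag mutant, 2.45-fold lower, with the mutant value just above background. When background was taken as the 99th percentile instead, Tph2 was under it on both arrays and had no fold. Ddc, the decarboxylase of both pathways, had 826 in the wild-type and 343 in the lag mutant, 2.41-fold lower. A further probe set of Ddc read 3.76 and 2.36, under background, and gives no ratio. The enzymes that begin each pathway and the one that completes dopamine and serotonin were thus lower together by similar factors. Their ratios lay between those of Slc6a3 and Slc6a4 and that of Slc18a2.

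Dbh, the enzyme that makes noradrenaline, was the member whose direction depended on the probe set. The probe set that stood for it, of a design that can also bind related transcripts, read 189 in the wild-type and 156 in the lag mutant, 1.22-fold lower. A probe set of unique design read 80.3 and 95.3, 1.19-fold higher in the mutant, and the other one read 19.95 and 30.2, both under background. No direction is given for Dbh for this reason. Th, at 2.08-fold lower, serves noradrenaline as well as dopamine synthesis, and no difference between the branches was tested.

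Nr4a2 (Nurr1), an orphan nuclear receptor needed for the dopamine neuron phenotype and also made in layer 6b and the claustrum of the cortex, had a higher signal in the mutant. Among the measured members it was the only one higher on the probe set of highest mean signal. The probe set that stood for it read 1942 in the wild-type and 3153 in the lag mutant, 1.62-fold higher, and 362 of the measured genes had a higher ratio. The other 3 probe sets above background were higher in the mutant as well, going from 1173 to 1869, from 638 to 995 and from 423 to 790. The last 2, at 24.5 and 47.3 and at 7.87 and 7.35, were under background on both arrays. Across the 4 probe sets above background the folds ran from 1.56 to 1.87, so the direction did not depend on which of them was taken. Fev, the transcription factor of serotonin neurons, had no probe set of its own and was not analysed here.

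**Figure D2:**
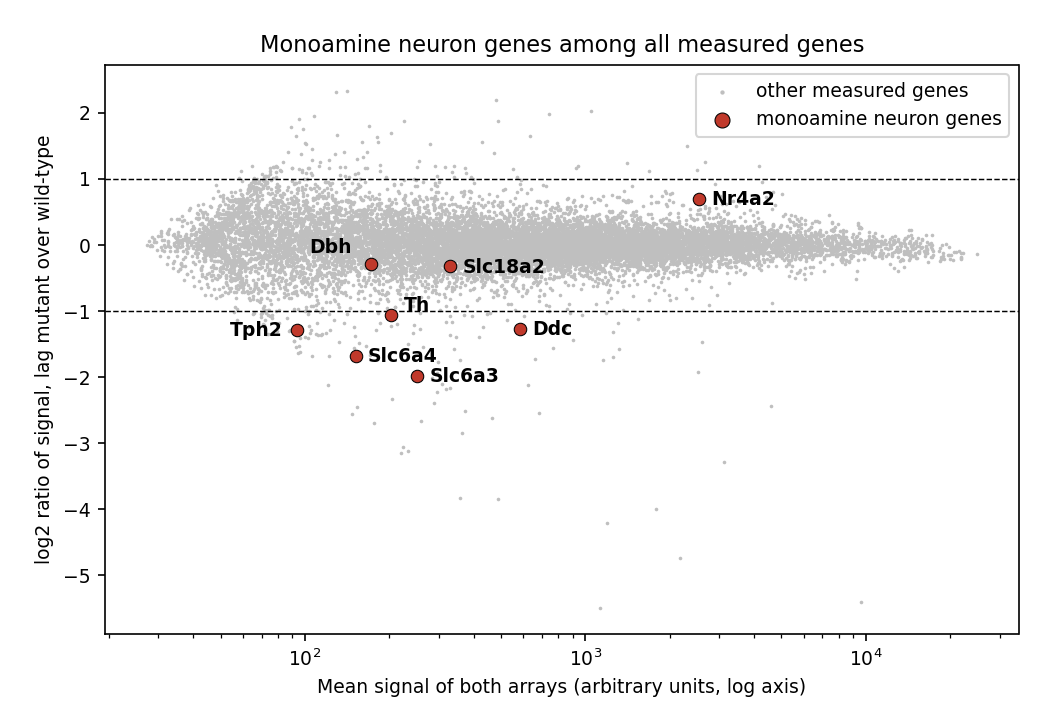
Log2 ratio of the lag mutant signal over the wild-type signal, against the mean signal of both arrays on a log axis, for 13899 measured genes (grey) and the 8 measured monoamine neuron genes (red), 1 array per genotype. Dashed lines mark 2-fold differences. Slc6a3, Slc6a4, Tph2, Ddc and Th lie below the lower line, Slc18a2 and Dbh lie within the cloud at -0.32 and -0.28, and Nr4a2 lies above it at 0.70.

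Of the other identity genes of the same neurons that were measured, only Tfap2b on the noradrenaline list was seen past 2-fold. Where a fold is a lower bound, the difference may be larger. Several defining factors were under background, and in bulk tissue the signals of the other genes cannot be assigned to these neurons. The lists therefore do not show whether the neurons themselves changed. Of 17 dopamine neuron identity genes, 16 had a probe set and 10 were measured. Of these, 7 had a lower and 3 a higher signal in the mutant, and the median log2 ratio was -0.19. Past 2-fold were 0, with 2 of the folds being lower bounds. Aldh1a1, which marks the ventral tier of midbrain dopamine neurons, read 905 in the wild-type sample and 805 in the mutant. Ret, the receptor for glial cell line-derived neurotrophic factor, read 402 and 301, 1.34-fold lower. Otx2, a homeobox gene of the forebrain and midbrain, read 283 and 263, and the neurotensin receptor gene Ntsr1 read 414 and 529. The other measured genes were dimmer. Lower in the mutant were Sncg (190 and 132), Chrna6 (87.8 and 56.0), Foxa1 (75.6 and 42.9, a lower bound) and Kcnj6 (57.6 and 48.5, a lower bound). Higher were Anxa1 (209 and 302) and Dlk1 (68.3 and 86.8). The transcription factor genes that define midbrain dopamine neurons were hardly seen on these arrays. Pitx3 (40.1 and 20.02), Lmx1a (4.99 and 26.5), Foxa2 (38.3 and 32.5) and En1 (9.08 and 8.89) were all under background in both samples, as were Chrnb3 and Gucy2c.

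Of 7 serotonin neuron identity genes, 5 had a probe set and 4 were measured, all 4 lower and 0 past 2-fold, with a median log2 ratio of -0.15. For 2 of these 4 genes the fold was a lower bound, so their decrease may be larger than 2-fold. Gata2, which acts in the specification of these neurons, read 171 in the wild-type sample and 166 in the mutant. Its relative Gata3 read 75.4 and 30.2, at least 1.52-fold lower with the mutant under background. Htr5b, a serotonin receptor gene, read 123 and 122, and Lmx1b, a homeobox gene of serotonin neurons, was under background at 41.1 and 42.1. Of 8 noradrenaline neuron identity genes, 6 had a probe set and 5 were measured, 4 lower and 1 higher. Slc6a2, the noradrenaline transporter, read 97.3 and 96.3, close to equal, beside the lower mutant signals of Slc6a3 and Slc6a4. Tfap2b, an AP-2 transcription factor gene, read 244 and 84.4, 2.90-fold lower, and was the only gene of the 3 identity lists seen past 2-fold. Which cells gave the Tfap2b signal was not tested, so it is not read as a decrease of noradrenaline neurons. Pnmt, which makes adrenaline, read 215 and 157, Prph, an intermediate filament gene, read 167 and 212, and Tlx3 read 51.6 and 23.8, at least 1.04-fold lower. Phox2a, a defining homeobox gene of these neurons, was under background at 24.5 and 38.5.

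Genes of the cofactor and of breakdown, which many other cells share, differed little. Th, Tph1 and Tph2 need tetrahydrobiopterin, and of the 6 genes for its synthesis and use 3 had a lower and 3 a higher signal, with a median log2 ratio of 0.01 and 0 past 2-fold. Qdpr, which recycles the cofactor, read 6687 in the wild-type sample and 6534 in the mutant. Pts, Pcbd1 and the chaperone gene Dnajc12 read 1040 and 1020, 996 and 1040, and 589 and 609. Gch1, the first enzyme of the pathway, stood apart at 125 and 64.0, 1.95-fold lower, and is named here after its values were seen. Of 6 breakdown and low-affinity uptake genes, 5 were measured, 2 lower and 3 higher, and 0 past 2-fold. Maoa, the monoamine oxidase of catecholamine neurons, read 1298 and 1295, Slc29a4, a low-affinity monoamine transporter, read 1878 and 2164, Aldh2 read 1053 and 1110, and Akr1a1 read 19217 and 19423.

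None of the measured receptor genes through which the target cells respond was seen past 2-fold. Of 5 dopamine receptor genes, 2 were measured, with Drd1 at 1272 in the wild-type sample and 1264 in the mutant and Drd2 at 254 and 209. Of 14 serotonin receptor genes, 11 were measured, 5 lower and 6 higher, with a median log2 ratio of 0.03. Htr2c read 3028 and 4065, 1.34-fold higher, Htr1b read 698 and 694, Htr7 read 350 and 358 and Htr1a read 301 and 325. Of 9 adrenergic receptor genes, 2 had a probe set of their own, Adra2c at 254 and 225 and Adra1b at 113 and 64.9, the second 1.74-fold lower. Drd2 is also made by dopamine neurons and Htr1a and Htr1b by serotonin neurons, as receptors for their own transmitter.

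Somatic transcripts of the midbrain and hindbrain were read as a check of the tissue taken. The label of both samples is cerebrum, and genes of cortex (10 of 11 measured) and striatum (6 of 8 measured) were above background in both. Neurod6, a factor of cortical pyramidal neurons, read 3338 in the wild-type sample and 4557 in the mutant, and Ppp1r1b, which encodes DARPP-32 of striatal neurons, read 937 and 854. Genes of other regions were present too. Of 13 midbrain genes, 7 were measured, 6 lower and 1 higher, with a median log2 ratio of -0.52. For 4 of the 7 only 1 array passed background, and that array set their direction. The summed signal as deposited, over the genes measured, was 861 in the wild-type sample and 445 in the mutant. Tal1, a factor of midbrain GABA neurons and of blood cell precursors, read 343 and 121, 2.82-fold lower. En2, which marks the midbrain and anterior hindbrain, read 126 and 21.6, at least 2.55-fold lower. Pou4f1, a factor of the red nucleus and habenula, read 137 and 135, and Tfap2d, of the dorsal midbrain, read 79.9 and 55.8.

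Of 17 hindbrain genes, 7 were measured, 3 lower and 4 higher, with a median log2 ratio of 0.06 and summed signals over the genes measured of 403 and 435. Glra1, a glycine receptor subunit of brainstem and spinal cord, read 99.3 in the wild-type sample and 45.3 in the mutant, at least 2.01-fold lower, and Slc6a5, the glycine transporter of inhibitory brainstem neurons, read 95.03 and 17.6, at least 1.92-fold lower. Hoxa5 went the other way, from 71.0 to 172, 2.43-fold higher, on a probe set of a design that can also bind related transcripts, as did Lbx1, from 33.9 to 79.1, at least 1.62-fold higher. Of the 14 Hox genes in the list, which set position along the hindbrain and spinal cord, 12 had a probe set and 4 were measured. The midbrain and hindbrain lists together had 14 measured genes, with 3 past a 2-fold decrease and 1 past a 2-fold increase. The midbrain list was thus mostly lower in the mutant alongside Slc6a3 and Th, while the hindbrain list, beside Slc6a4 and Tph2, held genes of both directions. Of the measured genes, 4 of 7 on the midbrain list and 6 of 7 on the hindbrain list had 1 signal under background. Their direction was set by which array passed that level. No contrast between these lists is read for that reason. Their part in the members' lower signals was not tested, and a difference in the brainstem tissue dissected and a difference between genotypes cannot be told apart with 1 sample of each.

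The other regions that hold dopamine or histamine neurons differed in opposite directions. All 6 olfactory bulb genes were measured and lower in the mutant, with a median log2 ratio of -1.14 and summed signals of 2579 in the wild-type sample and 1015 in the mutant. Eomes, a factor of the bulb's projection neurons, read 453 and 113, 4.02-fold lower, Cdhr1, a protocadherin-related gene of mitral and tufted cells, read 1318 and 487, 2.71-fold lower, and Tbx21, a further factor of these cells, read 126 and 19.5, at least 2.54-fold lower. Of 13 hypothalamus genes, 10 were measured, 2 lower and 8 higher, with a median log2 ratio of 0.54 and summed signals over the genes measured of 2741 and 5687. Avp, the vasopressin gene, read 411 and 1678, 4.09-fold higher, Pmch, of melanin-concentrating hormone neurons, read 836 and 1977, 2.37-fold higher, and Sim1 read 43.6 and 100.5, at least 2.06-fold higher. Of the monoamine genes, Th and Ddc are also used in the bulb and the hypothalamus, and Slc18a2 and Ddc are also used in histamine neurons of the hypothalamus, whose enzyme gene Hdc read 134 and 162. The part of either region in the signals of these or the other members was not tested.

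**Figure D3:**
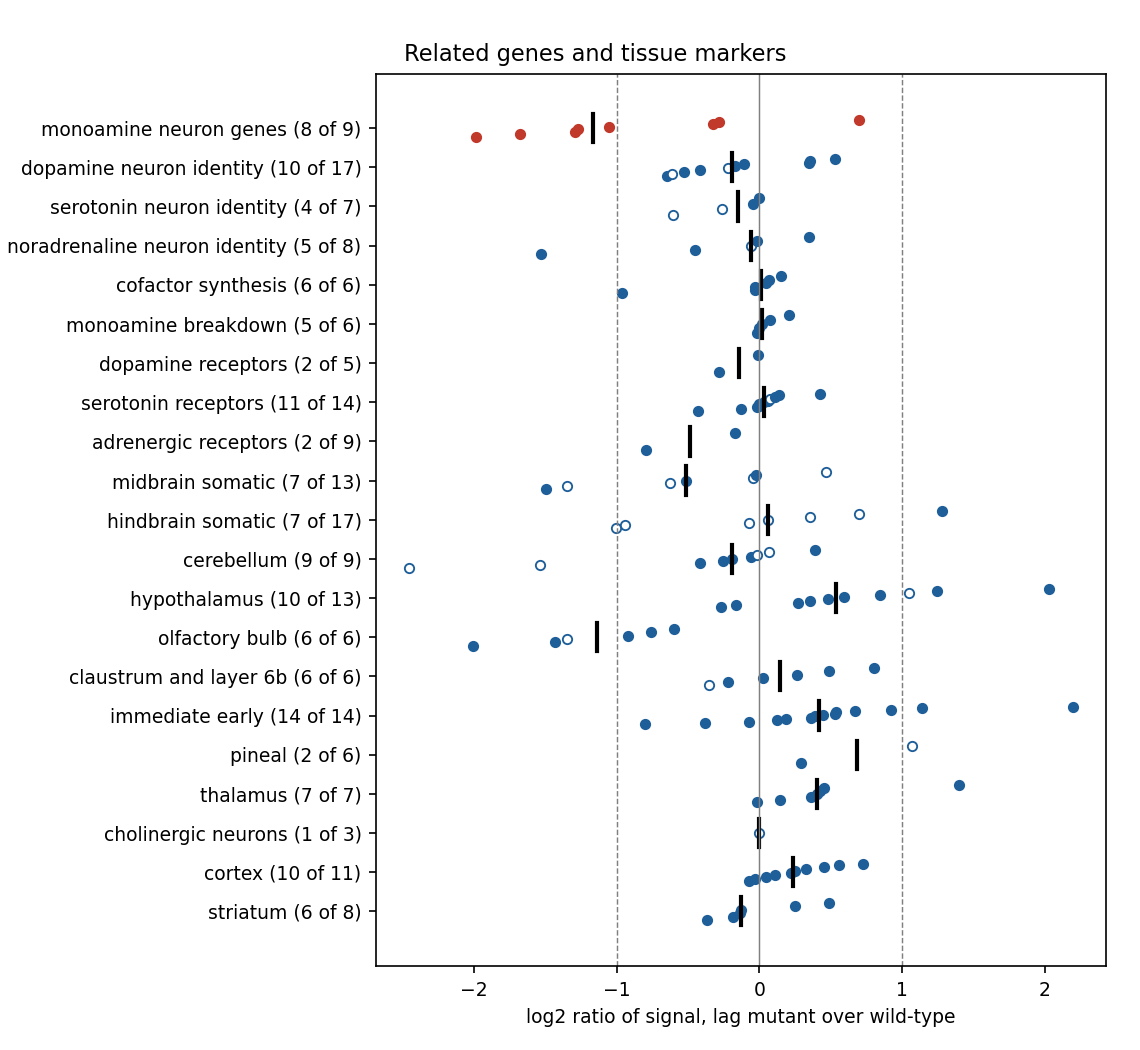
Log2 ratio of the lag mutant signal over the wild-type signal for the monoamine neuron genes (red) and for genes of 20 lists of related functions and brain regions (blue), with measured and listed genes counted beside each name. Open circles are lower bounds, black bars are medians and dashed lines mark 2-fold differences. The olfactory bulb list lies to the left with a median of -1.14 beside -1.16 for the monoamine neuron genes, while the hypothalamus list lies to the right at 0.54.

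All 9 cerebellum genes were measured, 7 lower and 2 higher. Pcp2, of Purkinje cells, read 271 in the wild-type sample and 36.2 in the mutant, at least 5.48-fold lower, and Gabra6, of granule cells, read 144 and 41.6, at least 2.91-fold lower. Others on the list that were above background in both samples differed by 1.33-fold or less. Zic1 read 4938 and 6469, 1.31-fold higher, Neurod1 read 1735 and 1521, Cbln1 read 1636 and 1568, and Car8 read 1388 and 1041, 1.33-fold lower. Of the further Purkinje cell genes, named after their values were seen, Ppp1r17 was above background in both samples at 102 and 85.4, and Grid2ip was close to background at 47.1 and 50.9. Cbln3, also named after its values were seen, read 50.2 in the wild-type sample and 22.9 in the mutant. Its mutant signal was under background, so the size of its decrease is not known. The part of cerebellar tissue in the members' signals was not tested.

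For Nr4a2, the comparison genes were those of the deep cortex and claustrum and the immediate early genes, a class of fast-induced transcripts that includes the Nr4a family. Of 6 claustrum and layer 6b genes, all were measured, 2 lower and 4 higher, with a median log2 ratio of 0.14. Cplx3, a complexin of layer 6b, read 284 in the wild-type sample and 497 in the mutant, 1.75-fold higher, Ccn2 read 1125 and 1347, Gnb4 read 3369 and 3433 and Lxn, a latexin gene of the claustrum, read 3283 and 2817. Of 14 immediate early genes, 11 were higher and 3 lower, with a median of 0.42. Npas4 read 173 and 790, 4.58-fold higher, and Fos read 1562 and 3437, 2.20-fold higher. Egr1 read 6441 and 6116, and the relatives of Nr4a2 differed from it, with Nr4a3 at 1414 and 1538 and Nr4a1, named after its values were seen, at 1564 and 896. The part of these genes' cells or of induction at dissection in the Nr4a2 signal was not tested.

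The decreases of Slc6a3, Slc6a4, Tph2, Ddc and Th kept their direction in every alternative processing that gave a value. Ddc and Slc6a3 were at least 2-fold lower under each of the 8 alternatives of probe set, background and normalization. Several of these alternatives could not change a gene with 1 probe set above background and both signals above that level. Slc6a4 was at least 1.73-fold lower when background was set at the 99th percentile, since its mutant signal then lay under that level, and Slc6a3 was at least 3.01-fold lower. Dbh was the 1 member that changed sign, at 0.25 with unique probe sets alone. Nr4a2 stayed between 0.64 and 0.73.

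**Figure D4:**
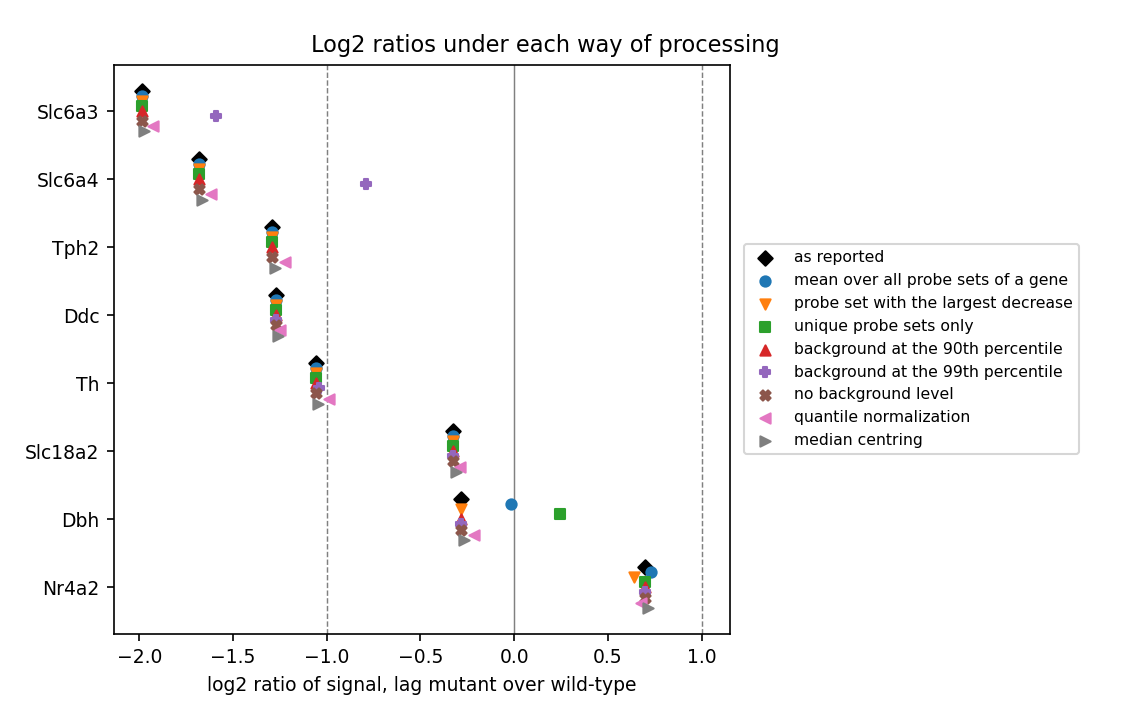
Log2 ratio of the lag mutant signal over the wild-type signal for each measured monoamine neuron gene as reported (black diamonds) and under 8 other ways of processing the same arrays. Dashed lines mark 2-fold differences. Most points of a gene overlap, with Slc6a4 moving to -0.79 and Slc6a3 to -1.59 at the 99th percentile background and Dbh to 0.25 with unique probe sets.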

How the data were processed

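Cerebrum RNA of 1 wild-type and 1 lag mutant mouse sample at P14 was hybridised to Affymetrix mouse arrays. The authors computed linear signal intensities per probe set with MAS5.0, under its default settings with global scaling. MAS5 is also the tool in the submitters' processing notes. No detection calls were among the values, and the scaling target was not given in the sources used. Median signals were 105 and 98.3 on the wild-type and mutant array. Of 45101 probe sets, 34958 had 1 gene in the annotation, 932 several and 9211 none. Symbols of 34754 were matched by gene identifier through the RefSeq table.

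The members and the 20 comparison lists were chosen with earlier results of these data known. Named are all members, list genes past 2-fold, up to 4 others per list by mean signal, and defining markers under background. Further examples were picked after values were seen. With 1 array per genotype no test was run, and the 2 arrays limit the precision. The scripts were tested on simulated data. Alternatives varied which probe set stood for a gene, the background level, the normalization and the fold. Python 3.11.15, numpy 2.4.6, pandas 2.3.3, scipy 1.17.1 and matplotlib 3.10.9 were used.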

Additional observations from a re-analysis of the deposited data

How the results depend on the processing

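No paired analysis was possible because there is 1 array per genotype, and for the same reason no replicate could be left out. Of the single members' ratios, 61 of 63 across the alternatives moved by less than the SD of the log2 ratio across genes of similar signal. The exceptions were Slc6a4 at the 99th percentile background and Dbh with unique probe sets. Many of these ratios could not move, so the count is not read as stability. Slc6a3, Slc6a4, Th, Slc18a2 and Tph2 have 1 probe set each. A lower background level, or none, leaves a ratio unchanged where both signals are above background. With background at the 99th percentile, 3 members were at least 2-fold lower (Slc6a3, Th and Ddc) of 7 measured. With quantile normalization 4 were, as Th reached -0.99. At a 4-fold limit 0 members were lower, and at a 1.5-fold limit 1 member, Nr4a2, was higher. Over all genes, those lower past the limit numbered 300 with the probe set of largest decrease, 74 at the 99th percentile background, 980 with no background level, 490 at 1.5-fold and 29 at 4-fold. Those higher numbered 174 at the 90th and 31 at the 99th percentile, 1232 with no level, 599 at 1.5-fold and 4 at 4-fold. The median of the members ran from -1.16 to -0.79. The breakdown genes had a median of -0.057 with the probe set of largest decrease, opposite in sign to the reported 0.02, and were below 0 in 3 of 8 alternatives. The thalamus median was 0.12 with the mean over all probe sets and -0.02 with the probe set of largest decrease, beside 0.40 as reported. The hindbrain median ran from -0.46 to 0.18, with the opposite sign in 2 of 8 alternatives. Apart from what the choice of limit or background sets by construction, the cause was not tested. Signals near background, as for Tph2 and Slc6a4 in the mutant, limit the precision of their folds.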

Other observations

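The pineal gland, which makes melatonin from serotonin, gave signals near background. Tph1, its tryptophan hydroxylase, read 33.98 in the wild-type sample and 38.6 in the mutant, under background on both arrays, as did Crx at 35.2 and 36.2. Aanat, which acetylates serotonin, read 38.6 and 102, at least 2.10-fold higher, and Sag read 73.1 and 89.4. Cholinergic neurons, the other diffuse projection system of the brain, were hardly read. Chat was under background at 39.4 and 24.4, Slc5a7 likewise at 21.5 and 24.5, and Slc18a3, the vesicular acetylcholine transporter, read 49.6 and 39.7.

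The 7 thalamus genes, which receive monoamine axons but make no monoamines, were all measured, with 6 higher and 1 lower and a median log2 ratio of 0.40, or -0.02 where the largest decrease chose the probe set. Gbx2, a homeobox gene of the thalamus, read 75.7 in the wild-type sample and 200 in the mutant, 2.64-fold higher, while Slc17a6, the vesicular glutamate transporter of thalamic neurons, read 4373 and 4316.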
